A study of Mus musculus with 51 samples.

Results

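The genes described here are 8 amino acid transporters of the kidney's proximal tubule, Slc3a1, Slc7a9, Slc6a19, Slc6a18, Slc7a7, Slc7a8, Slc1a1 and Slc6a20a, taken by symbol from a table of 16099 genes. All 8 were found, and all 8 were among the 14426 genes with a mean of at least 10 that were tested. The samples are whole fetal kidneys of the mouse strain C57BL/6, titled WT with no other allele or agent named in the labels, from which poly-A RNA was sequenced. They were collected at 13 time points, 4 h apart and named CT0 to CT48. The sample labels place CT0 at embryonic day 18, CT24 at day 19 and CT48 at day 20, whereas the series' own design text ends later. Each time point has 4 libraries, but for CT20 with 3, which makes 51. As no dam or litter is named, libraries of a time point may come from littermates, and p-values measure only the spread between these samples.

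The proximal tubule takes filtered amino acids back from the urine. Transporters on its brush border carry them from the lumen into the cell, and others on the basolateral side pass them on to the blood. Several work as pairs, in which a helper protein brings the transporter to the membrane, and loss of single members is known from inherited disorders such as cystinuria, Hartnup disorder and lysinuric protein intolerance.

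Library IDs fall into a first range of numbers, CT0 to CT24 (27 libraries), and a second, CT28 to CT48 (24 libraries), called parts here; CT12 replicate 4 and CT36 replicate 3 carry IDs of another prefix and were placed by their time. Values had been normalised and rounded before deposit, with library totals of 34226024 to 35711911, so sequencing depth is unknown. The parts had nearly the same mean gene by gene: the log2 ratio of the part means, second to first, had an SD of 0.0326 over 12274 genes. Of the 8 transporters Slc6a19 lay farthest from 0, at 0.297 (means of 534 and 656.1), followed by Slc7a7 at 0.0836 and Slc6a20a at 0.0803. The spread between libraries of a time point was wider in the second part (median SD of 0.136 on the log2 scale, against 0.0748). For these reasons time points are compared only inside a part, never CT24 with CT28. The levels per kb, the difference of slopes, the rhythm fit and the most like genes use all 51 libraries. Because whole kidneys were sequenced, fewer cells of a type and less RNA per cell cannot be told apart in any result.

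Levels were compared between genes as the normalised value per kb of annotated exons. Slc3a1 encodes rBAT, the helper subunit of the brush border transporter of cystine and dibasic amino acids, and had the highest level per kb, 4010 ± 580 (SD, 51 libraries, range 3000 to 5160). Its best known transport subunit, Slc7a9, stood at 426 ± 80.7 per kb. Among the brush border carriers of neutral amino acids, Slc6a18 had 1530 ± 288 per kb and Slc6a19, the gene of Hartnup disorder, 118 ± 54.9. The basolateral transporters were between these, with Slc7a8 at 1020 ± 169 and Slc7a7, the gene of lysinuric protein intolerance, at 776 ± 195 per kb. Slc1a1, the brush border carrier of glutamate and aspartate, had 233 ± 46.5 per kb, and Slc6a20a, a proline carrier, 15.8 ± 5.08. The order was Slc3a1, Slc6a18, Slc7a8, Slc7a7, Slc7a9, Slc1a1, Slc6a19 and Slc6a20a. It held between neighbours in all 51 libraries, except that Slc6a18 was above Slc7a8 in 46 and Slc7a8 above Slc7a7 in 50. The levels of Slc6a18 and Slc7a8 therefore overlapped, and those of the other neighbours differed within nearly every library.

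**Figure D1:**
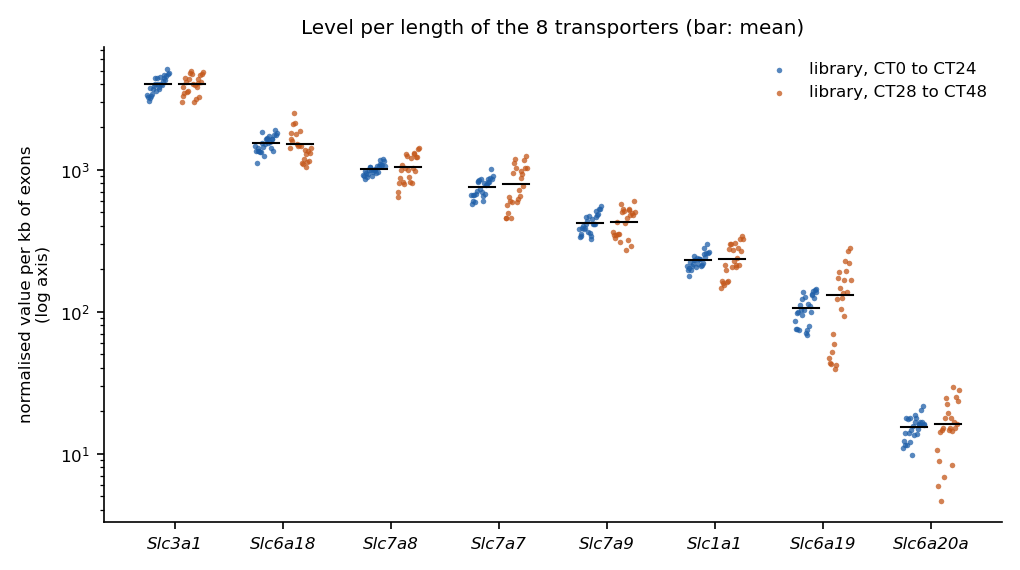
Normalised value per kb of exons (vertical log axis) of each of the 8 transporters in 27 libraries of CT0 to CT24 and 24 of CT28 to CT48; points are libraries and bars are means. Slc3a1 lies highest, between 3000 and 5160 per kb, Slc6a20a lowest, and the libraries of Slc6a19 reach from 39.8 to 282.

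In GENCODE M21, which annotates GRCm38 (mm10), all 8 are protein-coding genes. Slc3a1 (ENSMUSG00000024131.8) is at chr17:85028376-85064236 on the plus strand and Slc7a9 (ENSMUSG00000030492.16) at chr7:35448796-35466036 on the plus strand. Slc6a19 (ENSMUSG00000021565.16, chr13:73679745-73704865) and Slc6a18 (ENSMUSG00000021612.15, chr13:73661752-73678023) are neighbours on the minus strand, 1721 bases apart with 0 protein-coding genes between them. Slc7a7 (ENSMUSG00000000958.10, chr14:54369442-54417780) and Slc7a8 (ENSMUSG00000022180.7, chr14:54722209-54781946) are both on the minus strand with 304428 bases and 16 protein-coding genes between them. Slc1a1 (ENSMUSG00000024935.11) is at chr19:28835049-28913960 on the plus strand and Slc6a20a (ENSMUSG00000036814.13) at chr9:123634770-123678885 on the minus strand. Some exon bases are shared with genes on the other strand: 31.9% of those of Slc1a1 with 4430402I18Rik, 26.5% of Slc3a1 with Prepl, 14.9% of Slc6a20a with Gm17120, Gm17200 and Ccr9, and 7.0% of Slc7a7 with Oxa1l. No source used here says whether reads were assigned by strand, so the values of these 4 genes are uncertain to that extent. Slc6a20a also has a close copy, Slc6a20b, between which reads may be split.

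Since most of these genes moved together in the comparisons below, the start regions of 4 of them are shown: the cystine transport pair Slc3a1 and Slc7a9, and Slc7a7 and Slc6a19, which had the larger rises of the basolateral and the neutral brush border genes. RefSeq promoter windows of GRCm38.p6 (300 bases, 250 of them before the start) were found for 7 of the 8 genes, not for Slc6a18, and number 12 in all, with 5 for Slc7a7 and 2 for Slc7a9, of which the first listed is shown. The windows were searched on both strands for letters of a site of the tubule factor HNF4 (CAAAGTCCA) and of the clock factors' E-box (CACGTG), which do not overlap each other in these windows, chosen with the sequences in view. Each line runs 5′ to 3′ along the gene's strand from 150 bases before the start to the start or to the first annotated exon base, and capitals mark matches.
Slc3a1, chr17:85028197-85028346, plus strand: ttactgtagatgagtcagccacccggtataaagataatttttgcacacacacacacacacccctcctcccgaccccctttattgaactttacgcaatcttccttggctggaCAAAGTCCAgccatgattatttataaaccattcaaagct
Slc7a9, chr7:35448942-35449036, plus strand: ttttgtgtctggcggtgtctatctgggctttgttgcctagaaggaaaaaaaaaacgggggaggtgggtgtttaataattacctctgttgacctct
Slc7a7, chr14:54417945-54418094, minus strand: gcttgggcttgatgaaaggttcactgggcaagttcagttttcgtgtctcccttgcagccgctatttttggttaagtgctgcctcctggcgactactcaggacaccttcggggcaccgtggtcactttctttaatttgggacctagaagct
Slc6a19, chr13:73692637-73692786, minus strand: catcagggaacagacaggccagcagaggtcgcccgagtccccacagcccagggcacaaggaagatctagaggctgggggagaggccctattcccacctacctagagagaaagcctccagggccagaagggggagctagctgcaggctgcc
The stretches of Slc3a1 and Slc7a7 lie before the annotated gene, and those of Slc7a9 and Slc6a19, at starts used by RefSeq, lie inside it. The HNF4 letters begin 39 bases before the Slc3a1 start and were found in 1 of the 7 genes, against 0.555% of all 27025 genes with windows (0.475% of 32851 windows of this length). The E-box letters were in 0 of the 7 genes, against 8.09% of all genes (7.15% of windows). Because the letters were chosen with these sequences in view, the counts cannot test for an excess of matches. A match of letters is a description of the window and does not show binding.

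All 8 transporters were higher at CT24 than at CT0, a day of development earlier at the same hour, and for each of them the 4 libraries of CT24 lay above the 4 of CT0. Of all genes tested 14.3% were called higher in this comparison (limma, adjusted p under 0.05). The share of all genes whose libraries did not overlap was not counted, here or in the comparisons below. The median log2 difference was 0.534 over the 8 genes and 0.00107 over all genes. Slc3a1 read 7603, 7396, 6967 and 7221 at CT0 and 10459, 11714, 10742 and 10902 at CT24, and rose by 0.59 ± 0.06 on the log2 scale (SE, adjusted p = 5.47e-08). Its partner Slc7a9 read 1016, 904, 950 and 911 at CT0 and 1306, 1411, 1408 and 1476 at CT24 (0.57 ± 0.08, adjusted p = 9.35e-06). Both subunits of the cystine transporter were thus higher to a like extent, 1.5-fold for Slc3a1 and 1.48-fold for Slc7a9.

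Both neutral amino acid carriers of the brush border were higher at CT24. Slc6a19 read 427, 378, 489 and 381 at CT0 and 629, 716, 729 and 688 at CT24 (0.73 ± 0.17, adjusted p = 0.00286), a 1.65-fold difference. Slc6a18 read 6495, 5965, 4940 and 5977 at CT0 and 7787, 8397, 7814 and 7975 at CT24 (0.46 ± 0.09, adjusted p = 0.000777). The basolateral exchangers rose as well, Slc7a7 from a mean of 2073 to 3036 (0.55 ± 0.08) and Slc7a8, which passes neutral amino acids to the blood, from 4572 to 5618 (0.30 ± 0.05). Slc7a8 had the smallest difference of the 8, 1.23-fold. Slc1a1 read 1728, 1628, 1476 and 1671 at CT0 and 2146, 2473, 2125 and 2177 at CT24 (0.46 ± 0.06). Slc6a20a, the lowest, read 45, 50, 47 and 57 at CT0 and 68, 89, 65 and 66 at CT24 (0.52 ± 0.16, adjusted p = 0.0151). CT24 replicate 2 was the highest library of its time point in 6 of the 8 genes, and without it Slc6a20a did not pass (0.41, adjusted p = 0.0794). With all 51 libraries sharing 1 estimate of the spread, Slc7a8 (adjusted p = 0.0639) and Slc6a20a (adjusted p = 0.242) did not pass.

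**Figure D2:**
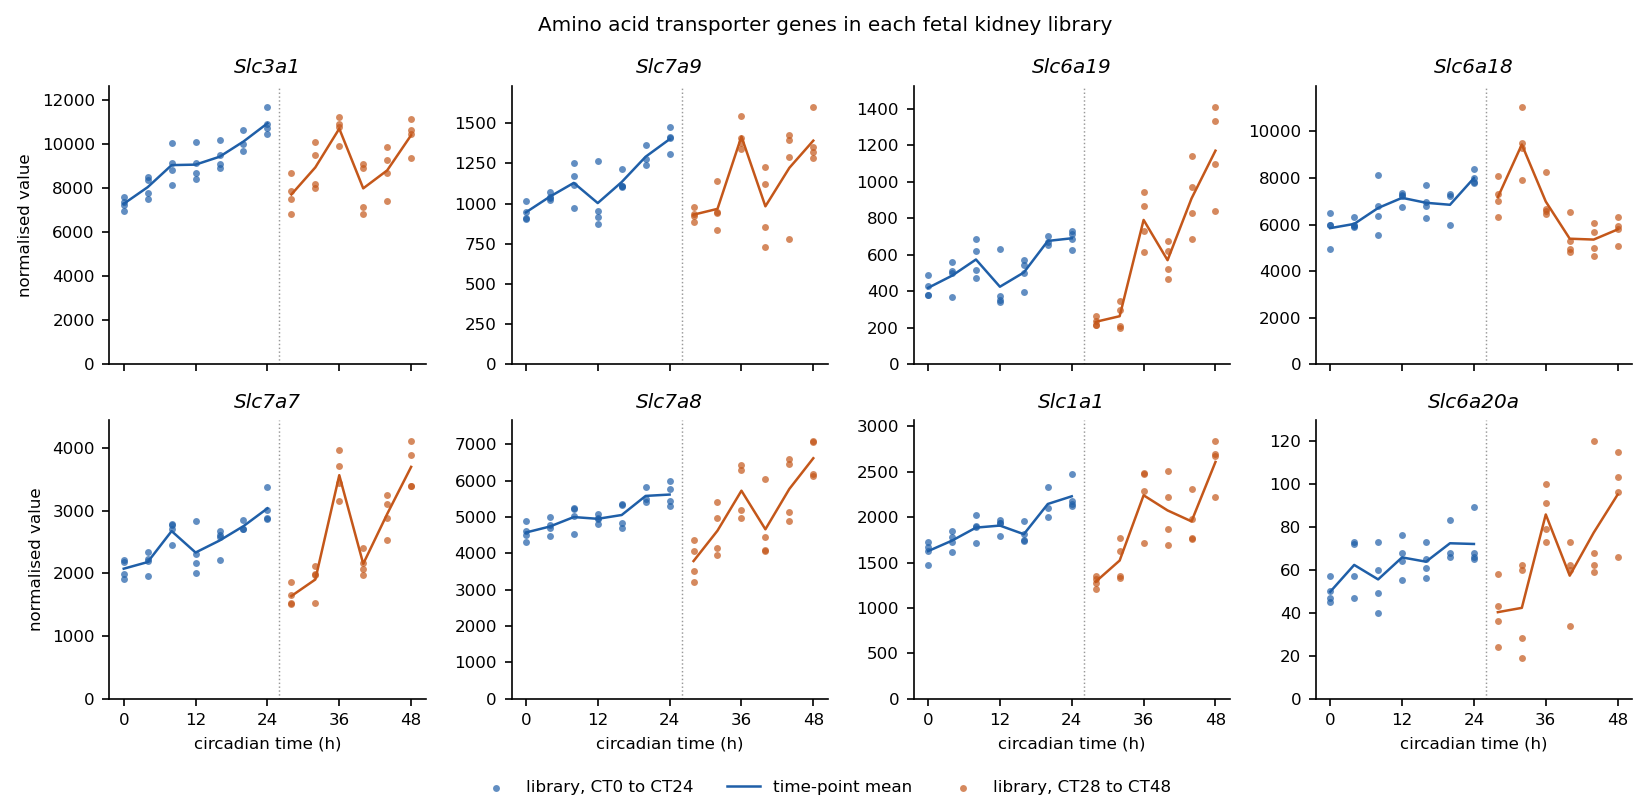
Normalised value (vertical axis, from 0, a scale for each gene) against circadian time in hours for each transporter; points are libraries, lines join time-point means within each part, and the dotted line separates the parts. All 8 genes are higher at CT24 than at CT0, and in the second part Slc6a18 falls from CT32 while Slc6a19 goes from 199 to 349 at CT32 to 838 to 1412 at CT48.

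In the second part, CT48 against CT28, 7 of the 8 genes were higher and Slc6a18 was lower. Across all genes 25.7% were called higher and 28.1% lower, so a call in this comparison is common. The median log2 difference was 0.912 over the 8 genes and -0.0133 over all genes. Slc6a19 read 236, 218, 215 and 262 at CT28 and 1335, 1097, 1412 and 838 at CT48, a 4.93-fold difference (log2 2.30 ± 0.18, adjusted p = 5.51e-10). Slc7a7 read 1518, 1514, 1865 and 1651 at CT28 and 3888, 3391, 4113 and 3401 at CT48 (1.18 ± 0.10, adjusted p = 4.84e-10). The libraries of these genes did not overlap between the time points, and Slc6a19 had the largest difference of the 8.

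Slc1a1 read 1204, 1353, 1320 and 1278 at CT28 and 2693, 2226, 2841 and 2676 at CT48 (1.01 ± 0.12, adjusted p = 3.34e-07). Slc6a20a read 43, 24, 36 and 58 at CT28 and had a mean of 95 ± 20.9 (SD, n = 4) with a lowest library of 66 at CT48 (1.26 ± 0.34, adjusted p = 0.00254). Slc7a8 had means of 3787 and 6618 (0.81 ± 0.14), Slc7a9 of 930.8 and 1391 (0.57 ± 0.16) and Slc3a1 of 7720 and 10420 (0.43 ± 0.10). In none of these 5 genes did the libraries of CT48 and CT28 overlap. Slc6a18 read 6304, 7326, 8068 and 6994 at CT28 and 5953, 5077, 5789 and 6334 at CT48. It fell by 0.31 ± 0.11 (adjusted p = 0.0227), and its groups overlapped. The call on Slc6a18 was lost without CT48 replicate 2 (adjusted p = 0.084), CT28 replicate 2 (0.0504) or CT28 replicate 3 (0.0802).

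**Figure D3:**
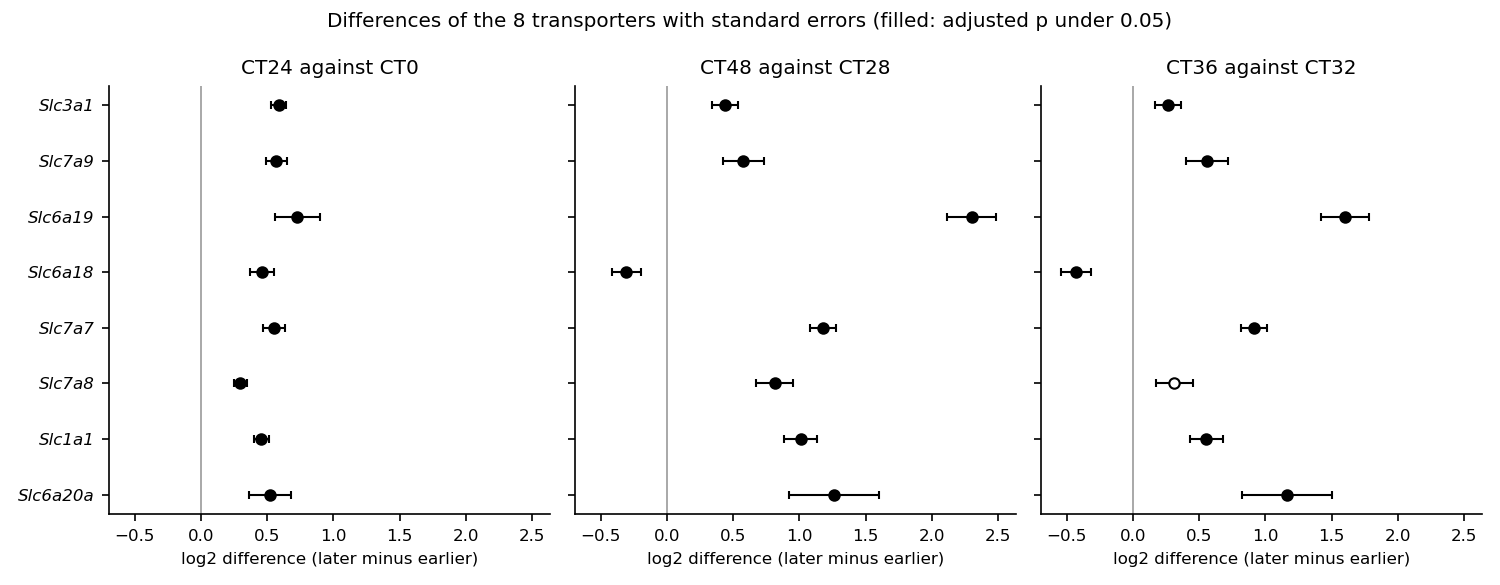
Log2 difference (later minus earlier, horizontal axis) with its standard error for the 8 transporters in 3 comparisons of 4 libraries each; filled points passed an adjusted p of 0.05. All 8 are above 0 for CT24 against CT0, and Slc6a18 alone of the 8 is below 0 in both comparisons of the second part.

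Of the 4 h steps, that from CT32 to CT36 held the most calls among the transporters. It was singled out because earlier results of these data placed the largest shift there, and its p-values do not allow for that choice. Of all genes tested 15.7% were called higher and 19.1% lower in this step of 4 h, and of the transporters 6 were higher and 1, Slc6a18, was lower. In the cystine pair the mean was lower again at CT40 and higher at CT48. CT48 was not compared directly with CT40, and limma called neither gene of the pair in a step between them. Means at CT32, CT36, CT40 and CT48 were 8952, 10710, 7998 and 10420 for Slc3a1. For Slc7a9 they were 967, 1417, 982.8 and 1391. The means of all the transporters but Slc6a18 rose, fell and rose in this order, those of Slc7a7 being 1901, 3566, 2151 and 3698. Slc6a19 read 349, 295, 199 and 211 at CT32 and 618, 867, 946 and 733 at CT36, a 3.04-fold difference (log2 1.60 ± 0.18, adjusted p = 7.57e-07). Slc7a7 read 2122, 1985, 1521 and 1976, then 3147, 3707, 3972 and 3437 (0.91 ± 0.10, adjusted p = 2.65e-07). Slc6a20a read 19, 60, 62 and 28, then 73, 100, 91 and 79 (1.16 ± 0.34, adjusted p = 0.0089). In these 3 genes every CT36 library was above every CT32 library, as it was in Slc7a9 (0.56 ± 0.16, adjusted p = 0.00757).

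Slc1a1 differed by 0.55 ± 0.12 (adjusted p = 0.00139) and Slc3a1 by 0.26 ± 0.10 (adjusted p = 0.0388), with overlapping groups. Slc7a8 had a difference of 0.31 ± 0.14 that did not pass (adjusted p = 0.089). Slc6a18 read 9282, 11060, 9493 and 7903 at CT32 and 6661, 6465, 6567 and 8245 at CT36, and fell by 0.43 ± 0.11 (adjusted p = 0.00442). Its CT36 libraries were below the CT32 range except replicate 4. The call on Slc3a1 was lost without any 1 of CT36 replicates 2, 3 and 4 and CT32 replicates 3 and 4 (adjusted p from 0.0703 to 0.137) and that on Slc6a20a without CT32 replicate 1 (0.0562), while Slc7a8 passed without CT32 replicate 2 (0.0433).

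The other 10 steps of 4 h held few calls. In the first part Slc1a1 alone passed, from CT16 to CT20, where the libraries went from 1954, 1733, 1752 and 1811 to 2098, 2338 and 2001 (0.24 ± 0.06, adjusted p = 0.0137, against 7.57% of all genes called higher). From CT36 to CT40 the cystine pair Slc3a1 (-0.43 ± 0.10) and Slc7a9 (-0.56 ± 0.16), Slc6a18 (-0.38 ± 0.11) and Slc7a7 (-0.73 ± 0.10) fell, 4 of 8 against 9.27% of all genes. All 8 had a negative estimate in that step, from -0.73 to -0.11. Slc7a7 rose again from CT40 to CT44 (0.45 ± 0.10, adjusted p = 0.025, against 0.846% of all genes). In the remaining 7 steps limma called 0 of the 8 at an adjusted p under 0.05. Of all genes it called, in either direction, 0.319% for CT4 against CT0, 1.61% for CT8 against CT4, 4.01% for CT12 against CT8, 1.21% for CT16 against CT12, 1.57% for CT24 against CT20, 0.118% for CT32 against CT28 and 0.215% for CT48 against CT44. At an unadjusted p under 0.05 the same steps held, in that order, 1, 2, 3, 1, 1, 3 and 3 of the 8 transporters, and 11%, 14.7%, 21.2%, 17.5%, 14.1%, 9.45% and 13.1% of all genes. Without replicate 2 of every time point 6 calls in place of 13 were made over the 11 steps, those lost including Slc1a1 from CT16 to CT20 (adjusted p = 0.159), Slc6a18 from CT32 to CT36 (0.07) and the cystine pair from CT36 to CT40 (0.0552 for Slc3a1 and 0.132 for Slc7a9), and with 1 spread over all 51 libraries there were 20. Slc1a1 also did not pass without replicate 3 (0.0543). Slc6a18 from CT36 to CT40 did not pass without replicate 2, 3 or 4 (adjusted p from 0.0809 to 0.118), nor Slc7a7 from CT40 to CT44 without replicate 1 (0.189) or 2 (0.197).

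Lines fitted through each part used all of its time points. From CT0 to CT24 all 8 genes rose, against 12.9% of all genes. The slopes lay between 0.29 ± 0.04 per 24 h on the log2 scale for Slc7a8 and 0.62 ± 0.17 for Slc6a19, and that of Slc3a1 was 0.53 ± 0.05. Slc6a19 (0.495 without CT24, adjusted p = 0.191) and Slc6a20a (0.378 without CT0, adjusted p = 0.137) were the genes whose calls were lost when a time point, CT0 or CT24, or a replicate number was left out. With time-point means as the unit, limma called neither Slc6a19 (adjusted p = 0.0911) nor Slc6a20a (0.069). From CT28 to CT48, 6 genes rose (28.7% of all genes) and Slc6a18 fell (30.7% of all genes). The steepest was Slc6a19, at 2.82 ± 0.31 per 24 h, ahead of Slc6a20a (1.46 ± 0.38), Slc7a7 (1.21 ± 0.23), Slc1a1 (1.03 ± 0.17), Slc7a8 (0.81 ± 0.16) and Slc7a9 (0.56 ± 0.20). Slc6a18 had a slope of -0.75 ± 0.17 (adjusted p = 0.000679), and Slc3a1, at 0.29 ± 0.15, did not pass (adjusted p = 0.0909). Slc3a1 passed without CT36 (adjusted p = 0.0221) or CT40 (0.0321), and Slc7a9 did not without replicate 3 (0.15), CT28 (0.179), CT32 (0.0789) or CT48 (0.213). Slc7a9 also did not pass with time-point means as the unit (limma, adjusted p = 0.105). Without CT28 and CT32, left out together after their values had been seen, limma called 0 of the 8 slopes of the second part. Of all 14426 genes it then called 1074, against 8561 with these time points, and 16 libraries were left. The slope of Slc6a19 was then 1.39 (adjusted p = 0.0817) and that of Slc6a18 -0.487 (adjusted p = 0.231), so these calls were not made from the later time points alone.

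The slopes of the parts differed for 6 of the 8 genes. The second slope was larger for Slc6a19 (difference 2.20 ± 0.39, adjusted p = 7.73e-06), Slc6a20a (0.99 ± 0.38), Slc7a7 (0.73 ± 0.23), Slc1a1 (0.63 ± 0.17) and Slc7a8 (0.52 ± 0.14), 5 of 8 against 23.3% of all genes. It was smaller, with a change of sign, for Slc6a18 (-1.14 ± 0.19, adjusted p = 3.31e-06), against 28% of all genes. For the cystine pair no difference was shown: Slc3a1 had -0.25 ± 0.14 (adjusted p = 0.151) and Slc7a9 0.06 ± 0.21 (adjusted p = 0.835). Without CT28 alone 2 of these differences passed, those of Slc6a19 and Slc6a18. Without CT28 and CT32 limma called 0 of the 8, and 756 of all genes against 7411 with these time points. Without replicate 1 or 3 neither Slc7a7 (adjusted p = 0.0634 and 0.0543) nor Slc6a20a (0.107 and 0.0617) passed, and Slc6a20a did not without replicate 2 (0.053), CT32 (0.0878) or CT48 (0.1). Slc7a7 also did not without CT48 (0.0802). With time-point means as the unit, limma called the difference of neither Slc7a7 (adjusted p = 0.186) nor Slc6a20a (0.095). Which part a library belongs to and its age cannot be told apart here.

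**Figure D4:**
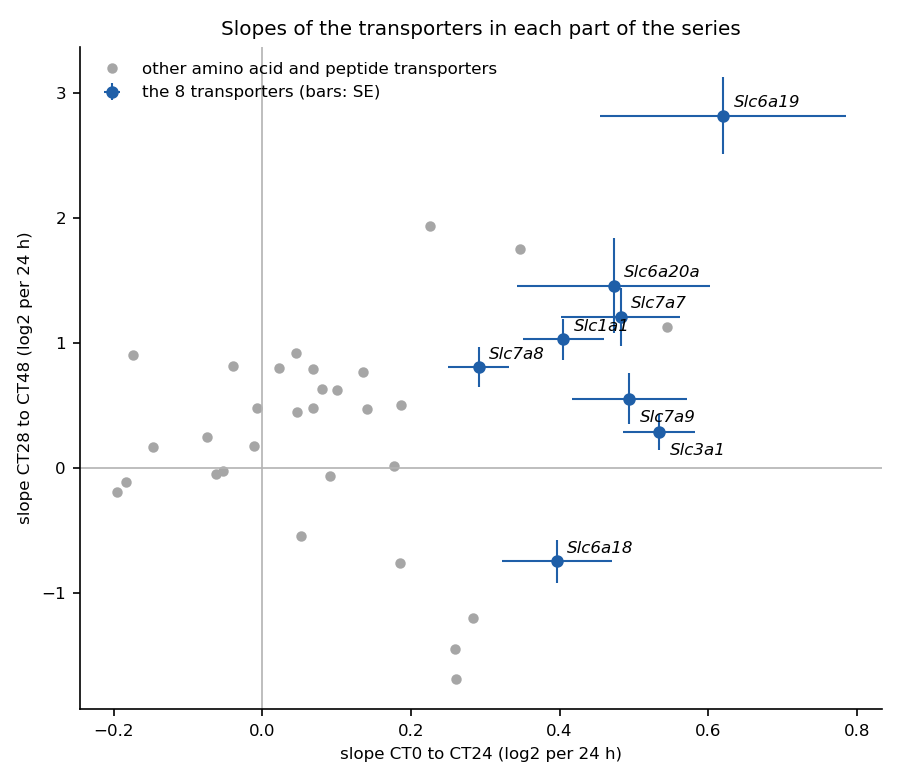
Slope from CT28 to CT48 (vertical axis) against slope from CT0 to CT24 (horizontal axis), both in log2 units per 24 h, for the 8 transporters with standard errors and for 30 other amino acid and peptide transporters (grey). The 8 lie right of 0, at 0.29 to 0.62, and spread on the vertical axis from -0.75 (Slc6a18) to 2.82 (Slc6a19).

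The neighbouring genes Slc6a18 and Slc6a19 went apart in the second part. The value of Slc6a18 divided by that of Slc6a19, a ratio of values not corrected for length, was 14.2 ± 2.74 at CT0 and 11.6 ± 0.683 at CT24 (SD, n = 4 each, exact permutation test, two-sided, p = 0.143). It was 37.3 ± 8.62 at CT32 (26.6 to 47.7) and 9.11 ± 2.22 at CT36 (6.94 to 11.2), with no overlap. From CT28 to CT48 it went from 31.1 ± 5.36 to 5.19 ± 1.6. Both of these comparisons gave the smallest p that 4 libraries against 4 allow (exact permutation test, two-sided, p = 0.0286), which is 0.0515 after adjustment over the 9 ratio comparisons made.

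**Figure D5:**
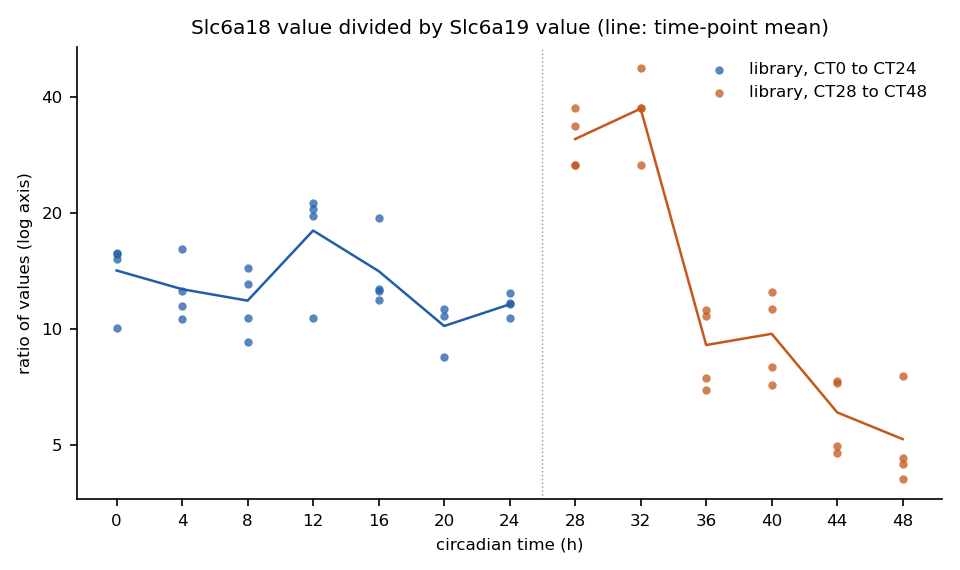
Value of Slc6a18 divided by the value of Slc6a19 (vertical log axis) in each library against circadian time in hours; lines join time-point means within each part. The 8 libraries of CT28 and CT32 lie between 26.6 and 47.7, and the 16 later ones at or under 12.5.

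The basolateral genes moved less unequally. Slc7a7 divided by Slc7a8 was 0.415 ± 0.0625 at CT32 and 0.626 ± 0.0477 at CT36 (SD, n = 4 each, exact permutation test, two-sided, p = 0.0286, adjusted 0.0515), and 0.435 ± 0.0421 at CT28 and 0.561 ± 0.0627 at CT48 with the same p. From CT0 to CT24 it went from 0.455 ± 0.0471 to 0.541 ± 0.0325 (exact permutation test, two-sided, p = 0.0571). For the cystine pair, Slc3a1 divided by Slc7a9 was 7.73 ± 0.392 at CT0 and 7.83 ± 0.405 at CT24 (exact permutation test, two-sided, p = 0.686), and 8.33 ± 1.17 at CT28 and 7.53 ± 0.705 at CT48 (exact permutation test, two-sided, p = 0.314). It was 9.3 ± 0.784 at CT32 and 7.6 ± 0.808 at CT36, with no overlap (exact permutation test, two-sided, p = 0.0286, adjusted 0.0515). These pairs were chosen with the values in view.

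Because the series title names the circadian clock, a 24 h rhythm was fitted beside a line in each part. Slc6a18 was the 1 gene of 8 that passed, with 8.36% of all genes called. Its fitted amplitude was 0.18 ± 0.05 on the log2 scale, with a peak at 7.3 h of the cycle (adjusted p = 0.0399). Slc3a1 had 0.13 ± 0.04 (adjusted p = 0.0578), and the amplitudes of the other 6 lay between 0.04 for Slc6a19 and 0.15 for Slc7a7. The call on Slc6a18 was lost without any 1 of the 4 replicate numbers (adjusted p from 0.0573 to 0.321), without any 1 of 7 time points (0.0502 to 0.151), and with time-point means as the unit (0.801). The authors' deposited table of rhythm tests lists a combined q under 0.05 for 5 of the 8 genes, against 41.3% of all genes in it. In the authors' deposited table Slc6a19 had the smallest of these, 0.000144, with a period of 27.9 h, and Slc6a18 had 0.0144 with a period of 22.7 h. For Slc1a1 (0.00315), Slc7a8 (0.0145) and Slc7a7 (0.0184) the authors' deposited table gives a period of 28 h.

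The partner proteins followed the transporters only in part. Slc3a2, which encodes the heavy chain that takes Slc7a7 and Slc7a8 to the basolateral membrane, rose in both parts, by 0.24 ± 0.04 from CT0 to CT24 and 0.48 ± 0.07 from CT28 to CT48. Slc7a13, another transport subunit that pairs with the product of Slc3a1 in the late proximal tubule, had 0.13 ± 0.07 and did not pass in the first comparison. In the second it fell by 1.14 ± 0.13, from a mean of 2219 ± 275 at CT28 to 1012 ± 168 at CT48 (SD, n = 4 each). Collectrin, encoded by the gene listed as Tmem27, carries Slc6a19 and Slc6a18 to the brush border. It rose by 0.52 ± 0.06 from CT0 to CT24 and had -0.01 ± 0.08 for CT48 against CT28, and its slopes differed between the parts (-0.53 ± 0.12). So 2 of these 3 partners passed as higher from CT0 to CT24, and 1 higher and 1 lower from CT28 to CT48.

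Of the transcription factors that keep proximal tubule genes on, Hnf4a rose by 0.13 ± 0.04 from CT0 to CT24 and by 0.51 ± 0.08 from CT28 to CT48. It also rose by 0.50 ± 0.08 from CT32 to CT36, where its libraries went from 7300 to 9749 up to 11768 to 12331. Its relative Hnf4g passed neither for CT24 against CT0 (0.20 ± 0.08) nor in the comparison of CT48 with CT28 (-0.05 ± 0.20). Their part in the transporter changes was not tested.

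Other amino acid and peptide transporters, 30 genes including many of other cell types, were called in both directions. From CT0 to CT24 8 were higher and 3 lower (median 0.0419), and from CT28 to CT48 12 were higher and 3 lower (median 0.228). Called in either direction were 36.7% and 50% of the list, against 26.6% and 53.9% of all genes. Slc43a2, a transporter of neutral amino acids, rose by 0.44 ± 0.07 and 1.52 ± 0.13, and the taurine transporter Slc6a6 by 0.24 ± 0.05 and 1.42 ± 0.11. Slc6a12, the betaine carrier, rose by 0.51 ± 0.11 in the first and had 0.57 ± 0.25 in the second, which did not pass. Lower from CT28 to CT48 were Slc6a15 (-1.21 ± 0.18), Slc7a12 (-0.90 ± 0.10) and Slc6a20b (-0.68 ± 0.17). Slc6a20b, the close copy of Slc6a20a, thus fell where Slc6a20a rose, and the reads that could belong to either cannot be assigned here.

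Genes that act beside the transporters were read from lists as well. Of 10 brush border peptidases, which free amino acids from peptides in the lumen, 8 were higher at CT24 than at CT0 and 0 lower, led by Dpep1 (0.65 ± 0.15). From CT28 to CT48 5 were higher and 2 lower, with Dpep1 at 0.56 ± 0.13 and Mep1b, a meprin subunit, at -0.53 ± 0.14. Of 20 enzymes of amino acid breakdown in the kidney 12 were higher at CT24 and 0 lower, among them Ddo (0.76 ± 0.13) and Hgd (0.58 ± 0.06). From CT28 to CT48 9 were higher and 2 lower. Gldc, of the glycine cleavage system, rose by 1.86 ± 0.23, and Amt, of the same system, fell by 0.70 ± 0.11. Called in either direction were 80% of the peptidases and 60% of the enzymes for CT24 against CT0, against 26.6% of all genes. For CT48 against CT28 the shares were 70% and 55%, against 53.9% of all genes.

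General markers of the proximal tubule, 15 genes outside the 8, gave the same direction with smaller medians. From CT0 to CT24 11 were higher and 0 lower (median 0.376), led by Kap (1.19 ± 0.22), Fbp1 (0.64 ± 0.05), Slc4a4 (0.61 ± 0.07) and the water channel Aqp1 (0.48 ± 0.05). From CT28 to CT48 13 were higher and 0 lower (median 0.53, against 0.912 for the 8 transporters). From CT32 to CT36 6 were higher and 2 lower (median 0.181, against 0.555). Slc34a1, the phosphate transporter, and Slc5a2, the glucose transporter of the early tubule, were the lower ones, at -0.37 ± 0.13 and -0.61 ± 0.10. Whether the medians of the lists differ was not tested.

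Markers of other cells moved in the same comparisons. The 8 cell cycle genes were all lower at CT24 than at CT0 and at CT48 than at CT28, and 7 of them at CT36 than at CT32, where their summed value went from a range of 45752 to 52962 to one of 34573 to 36988. Of the 7 tested genes of the loop and distal tubule 7 were higher from CT0 to CT24, led by Umod (0.97 ± 0.09). Their median log2 difference was 0.656, above the 0.534 of the 8 transporters. For CT48 against CT28 4 were higher and 2 lower, with a median of 0.655 against 0.912. Among 7 tested nephron progenitor genes 5 were lower, led by Eya1 (-0.45 ± 0.05), and 1 was higher. Of all 14426 genes tested, 2070 were called higher and 1762 lower from CT0 to CT24. For CT48 against CT28 25.7% were called higher and 28.1% lower, and for CT36 against CT32 15.7% and 19.1%. Of 5 macrophage genes 4 were higher both from CT0 to CT24 and from CT28 to CT48. The summed value of the 8 collecting duct genes was 27774 to 33015 at CT32 and 40179 to 47594 at CT36. Between CT36 and CT40, where the transporters had negative estimates, the mean summed value of the proximal tubule markers went from 173400 to 140200 and that of the loop and distal tubule from 46030 to 34450. The cell cycle genes went the other way, with 5 of 8 called higher and 1 lower and a mean sum of 35800 and then 40380. Of all genes 9.27% were called lower in that step, and the share called higher is not reported here. The mean sum of 6 skeletal muscle genes went from 496.5 to 949, and ranged from 239 to 2687 among the 4 libraries of CT40. The part of these cell types in the transporter results was not tested.

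Some of the transporters are also genes of the small intestine, and intestinal markers were read for that reason. Cdx1 and Apoa4, listed as markers of that tissue, had means of 7.863 and 2.647 and were at 0 in 1 and 7 libraries. Lct had a mean of 25.96 (11 to 74) and Lgals4 one of 36.12 (7 to 110). Lct had -0.36 ± 0.19 from CT0 to CT24 and -0.39 ± 0.47 from CT28 to CT48 and passed in neither, and Cdx1 and Apoa4 were under the filter on low values. Cdhr5 and Vil1, which the tubule's brush border also uses, were the list's genes that passed. Over the libraries the 6 genes of the intestinal list, Cdhr5 and Vil1 included, summed to 3345 to 6311. The 15 proximal tubule markers summed to 118658 to 194365. Whether intestinal tissue added to the transporter values was not tested.

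Within a part, levels of the transporters other than Slc6a18 were positively correlated over the libraries. Slc6a18 was set apart after its opposite course in the second part had been seen. The Pearson r of log2 values over 27 libraries of the first part had a median of 0.71 (0.45 to 0.91) over their 21 pairs, and over the 24 of the second 0.75 (0.55 to 0.91). For the 7 pairs with Slc6a18 the medians were 0.57 (0.28 to 0.78) in the first part and -0.36 (-0.63 to 0.16) in the second. After the time-point means were taken out, the 21 pairs had medians of 0.46 (-0.16 to 0.8) and 0.50 (-0.13 to 0.78), and those with Slc6a18 0.29 (-0.23 to 0.59) and 0.05 (-0.07 to 0.47). The lowest of the 21 were Slc6a19 with Slc7a8 in the first part and Slc7a7 with Slc6a20a in the second. These correlations are descriptions, since the libraries share normalisation and the mix of cells in each kidney.

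The genes whose values were most like the mean of the 8 standardised transporters over the 51 libraries, centred within part, were Vwa8 (r = 0.948), Sord, which encodes sorbitol dehydrogenase (0.943), Chdh, choline dehydrogenase (0.934), and Cldn2, a claudin of the proximal tubule's tight junctions (0.933). Acss1 (0.933), Abca3 (0.933), the fatty acid transporter Slc27a2 (0.932) and the brush border cadherin Cdhr5 (0.931) followed, out of 12031 genes compared. Slc6a18 had other companions, named after their values were seen: Slc22a27 (0.881), Slc22a19 (0.864) and Slc7a12 (0.862), Slc22a27 and Slc22a19 being of the organic anion carrier family. Slc7a12 and Slc6a18 were both among the genes that fell from CT28 to CT48. For Slc6a19 the most like genes were Cpt1a (0.957) and Ehhadh (0.954), which act in fatty acid oxidation, and Slc43a2 (0.954).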

How the data were processed

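RNA of 51 fetal kidney libraries was measured, and samples were grouped by the time in their titles. Per the labels' protocols, poly-A RNA was made into TruSeq libraries and read on HiSeq machines. The submitters' processing notes name mm10 as build and STAR 2.5.2b, featureCounts 1.5.0-p3 and bcl2fastq as tools; the normalisation and annotation are not given in these sources. The authors' deposited expression table, named for counts, holds whole numbers normalised before rounding, treated as a score: totals and upper quartiles (2375 to 2425.5) are nearly equal, and low genes vary less than counts would in CT0 to CT24 (variance 0.693 times the mean). Depth is unknown, so no counting interval was computed and errors are those between libraries. The authors' deposited table of rhythm tests holds p-values and q-values with scores for period and phase, per the file headers, and was used only where named. No 2 libraries had identical values.

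With limma 3.58.1 in R 4.3.3, models with a trended prior variance and robust moderation were fitted to log2(value + 1) of genes with a mean of at least 10 (14426 of 16099). Differences are on that scale, which understates changes of low genes, and Benjamini-Hochberg adjustment ran over all genes tested. Contrasts, 4 h steps and slopes used the libraries of 1 part, the difference of slopes all 51 with a variance weight per part, and the rhythm all 51 with a line per part. The fits were tested on simulated data. Of the table's symbols 15979 were found in GENCODE M21. Tables and figures were made with Python 3.11.15.

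The members, the lists and the comparison of CT36 with CT32 were chosen with earlier results of these data known. Named genes are all 8 transporters, every partner and tubule factor, up to 4 genes of each other list with the largest effect past the threshold (or that with the smallest p), and the 8 genes most like the mean transporter; some genes that this rule names are not reported here. Alternatives were the pseudocount, the filter on low values, scaling, the spread, blocks by replicate number or library ID, and leaving out libraries and time points.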

Additional observations from a re-analysis of the deposited data

Results flagged for a closer look

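Of the 96 groups of 4 libraries examined over the 8 transporters, 6 held a library whose gap to the nearest of the others was above Dixon's 95% critical value, and chance gives about 1 in 20. For Slc7a9, CT16 replicate 1 read 1212, against 1104 to 1112 in the others. For Slc6a19, CT12 replicate 1 read 632, against 342 to 373. For Slc6a18, CT36 replicate 4 read 8245, against 6465 to 6661, which is the library that overlaps CT32. CT24 replicate 2 was high in Slc1a1 (2473, against 2125 to 2177) and in Slc6a20a (89, against 65 to 68), and CT44 replicate 2 in Slc6a20a (120, against 59 to 68).

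The slope from CT28 to CT48 differed from that from CT0 to CT24 in 6 genes by limma's test of the difference. The second slope minus the first was 2.20 for Slc6a19, -1.14 for Slc6a18, 0.991 for Slc6a20a, 0.728 for Slc7a7, 0.63 for Slc1a1 and 0.517 for Slc7a8, in log2 units per 24 h. With time-point means as the unit, those of Slc7a7 and Slc6a20a did not pass.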

How the results depend on the processing

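The counts of transporters called for CT24 against CT0 (8), CT48 against CT28 (8), CT36 against CT32 (7) and the slope from CT0 to CT24 (8) moved by no more than 2 in any alternative, and no direction of a call changed there. Leaving out 1 library gave 7 to 8, 7 to 8 and 6 to 8 in the contrasts. Leaving out a replicate number gave 7 to 8 for the first slope, 6 to 7 for the second, 4 to 6 for the difference of slopes, 6 to 15 for the 13 calls over the 4 h steps and 0 for the rhythm. With 1 spread for all 51 libraries the steps held 20 calls. Without CT28 the difference of slopes passed for 2 genes. Without CT28 and CT32, chosen after seeing the data, it passed for 0, the second slope for 0 and the rhythm for 2. Slc7a9's difference of slopes, near 0, lay from -0.0664 (without replicate 3) to 0.185 without a replicate number, and was -0.0114, -0.00181, -0.069 and -0.365 without CT28, CT32, CT48, and CT28 with CT32. The last also turned Slc7a7 to -0.116 and Slc1a1 to -0.0403 (the cause was not tested, with 16 libraries left in the second part). The rhythm passed for 0 genes with time-point means, with a variance weight per part, without the 2 libraries of another ID prefix, with library ID series as a block, and without CT12, CT20, CT24, CT32, CT40, CT44 or CT48. It passed for 2 without CT0 or with 1 common line, and for 3 without CT36.

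Same-numbered libraries showed little shared deviation in CT24 against CT0, CT48 against CT28 and CT36 against CT32 (r from -0.10 to 0.16), and no pairing was used. Whether a number stands for a shared litter or preparation cannot be told from these values. With the replicate block the counts were 8, 8 and 7 in the contrasts, 14 over the steps, 8 and 7 for the slopes, 6 for their difference and 1 for the rhythm.

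Over all genes, CT24 against CT0 called 3832, or 1443 with 1 spread for all 51 libraries (60.4% of them higher, against 54%). The first slope called 3310, or 768 with time-point means (86.1% higher, against 56.4%), 1300 without CT24, 1887 without CT0, and 1599 and 1819 without replicates 2 and 3. The second slope called 8561, or 5438 with time-point means and 1074 without CT28 and CT32; the difference of slopes called 7411, or 4094 and 756. The steps called 10827, or 5726 and 5058 without replicates 2 and 3. The rhythm called 1206, or 0 with time-point means, 163 to 519 without a replicate number, 549 without CT12, 616 without CT48 and 2837 with a variance weight. Depth is unknown, and for Slc6a20a, with values of 19 to 120, rounding and low level limit what could be seen.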
